A study of Mus musculus with 8 samples.

Results

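Colonic CX3CR1int Ly6Clo cells sorted from mice with colitis were compared with Ly6Chi monocytes sorted from the spleens of mice with colitis. Each population was measured on 1 array, so the comparison used 2 of the 8 arrays of the series. For each gene the deposited log2 value of the splenic array was subtracted from that of the colonic Ly6Clo array, and a gene entered when the array in which it was brighter gave a value no lower than the median of its own probe sets. This left 10197 of 19938 named genes. The gene just inside this limit was Slc39a8, with log2 values of 5.84 in the Ly6Clo array and 5.24 in the splenic one, and the gene just outside was Sst, at 5.67 and 5.80. This limit did not use the size of the difference. The gene lists below were chosen with earlier results of these data known, and some genes are named for their large differences.

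All 8 arrays came from sorted cells of C57BL/6 mice with the genotype Cx3cr1gfp/+, in which the sequence of green fluorescent protein replaces 1 copy of Cx3cr1, so every group shares this loss of a copy. Of these, 4 populations were taken on day 4 of colitis caused by dextran sodium sulphate (DSS), a compound that injures the colonic epithelium when it is drunk. They are the colonic lamina propria cells CX3CR1int Ly6Clo, CX3CR1int Ly6Chi and CX3CR1hi F4/80hi, and splenic Ly6Chi monocytes. The other 4 arrays, from mice without colitis, hold splenic Ly6Chi monocytes and 3 colonic CX3CR1hi populations, titled F4/80hi, resident and monocyte-reconstituted. The 4 colitis arrays and the steady state F4/80hi array carry the label male, and the other 3, the steady state splenic array among them, the label female. The labels name no number of mice behind an array and no repeat of any array, so no difference has a replicate check, no p-value or error is given, and "higher" and "lower" below describe these arrays.

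Circulating Ly6Chi monocytes leave the blood for inflamed tissue, where they lose Ly6C and can take on features of macrophages or of antigen-presenting cells. Conventional dendritic cells are a separate lineage that depends on Flt3 ligand and expresses the transcription factor Zbtb46. After activation they switch on the chemokine receptor Ccr7, which guides them through lymph to the draining lymph node, where they present antigen on MHC class II to T cells. Both kinds of cell can lie in a gate set by intermediate CX3CR1 and low Ly6C.

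A log2 difference of 1 is a 2-fold difference in signal. In the colonic Ly6Clo array 1348 of the 10197 genes (13.2%) were at least 2-fold higher than in the splenic array and 950 (9.32%) at least 2-fold lower. At 4-fold or more there were 555 higher and 202 lower. When both arrays, and not only the brighter one, had to be at or above their medians, the excess of higher genes was gone, with 724 higher and 771 lower of 8831. The median difference over all 10197 genes was -0.07. The Ly6Clo value was the highest of the 8 arrays for 20.5% of them and the lowest for 17.8%. These shares, with the 13.2% and 9.32% above, are the background for the list counts against the colitis splenic array. Between the 2 splenic arrays, 65 of 9469 genes (0.686%) were at least 2-fold higher in colitis and 2 (0.0211%) at least 2-fold lower, although these arrays differ in condition and in the sex label. In a bulk array a lower value can come from fewer cells that express a gene or from less of its RNA in each cell, and these cannot be told apart.

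The gene with the largest difference of the naming rule was Plet1, with a log2 value of 11.77 in the Ly6Clo array and 5.27 in the splenic array. It was followed by Nr4a3, an orphan nuclear receptor induced early after stimulation, at 11.33 against 4.88, and Socs2, a suppressor of cytokine signalling, at 11.18 against 4.88. Socs2 has 2 probe sets, whose differences were 2.11 and 6.30. The other genes among the 15 largest differences were Klrb1b, Ccl22, Serpinb6b, Il1r2, Fscn1, Zg16, P2ry10, Ccl17, Adh1, Muc3, Kit and Sema7a, and the differences ran down to 5.21. In 12 of these 15 the Ly6Clo value was the highest of the 8 arrays. The exceptions were Zg16, Adh1 and Muc3, which were higher in CX3CR1hi arrays. At the other end stood Ly6a2, a member of the Ly6 family, at 4.73 against 12.79, and the chitinase-like genes Chil1 and Chil3. The remaining 12 of the 15 most negative differences were those of Hp, Mmp8, Arhgef37, Ace, Abcd2, Vcan, Tlr7, Zfyve9, Serpinb10, Plcb1, Trem3 and F13a1.

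**Figure D1:**
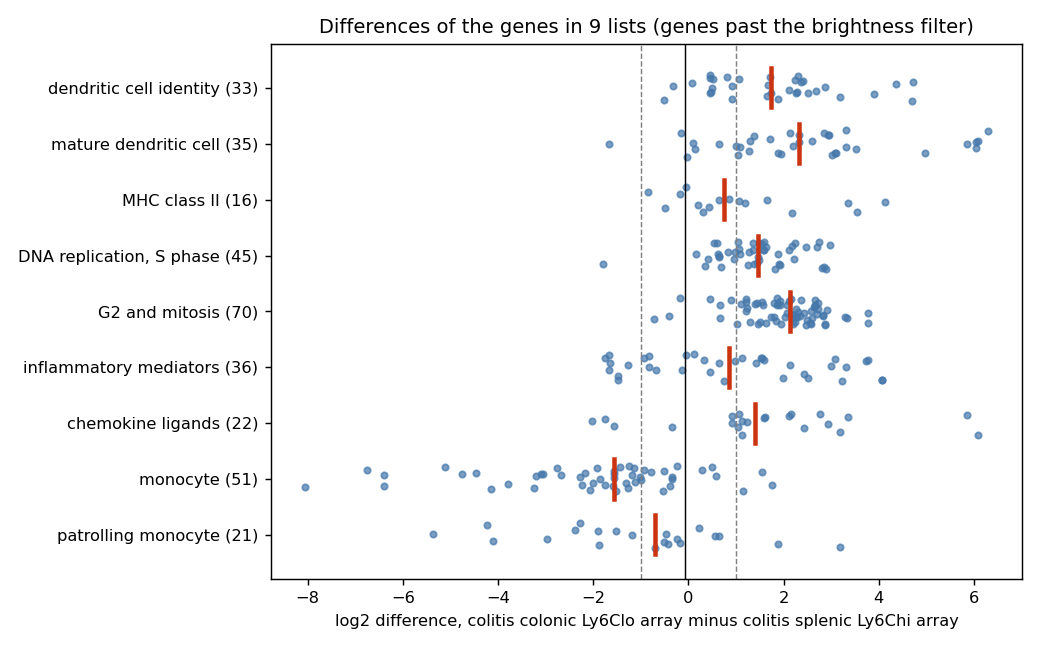
Log2 difference of each gene (points) between the colitis colonic Ly6Clo array and the colitis splenic Ly6Chi array, by gene list, for the genes past the brightness limit; the number of genes is in brackets, red bars are list medians, the solid line is the median over all genes (-0.07) and dashed lines mark 2-fold. The medians of the dendritic cell and cell cycle lists lie between 1.46 and 2.31, and that of the monocyte list at -1.57.

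The labels were set against marker genes. Ly6c1 and Ly6c2 could not be read, because no probe set names either of them alone. Cx3cr1, the fractalkine receptor, had a log2 value of 7.51 in the Ly6Clo array, close to 7.95 in the colonic Ly6Chi array, and stood at 9.95 in the colitis splenic and 10.76 in the steady state splenic array. It was highest in the 4 CX3CR1hi arrays, at 10.88 to 11.34, so the colonic arrays follow the order of the sort gates. Ccr2, the receptor that draws monocytes out of bone marrow, was 11.09 in the Ly6Clo array and 12.68 in the splenic array. Csf1r, the receptor for macrophage colony-stimulating factor, was 10.65 against 12.10, and Adgre1, which encodes F4/80, 9.31 against 11.53. All 4 genes were thus brighter in the splenic array, while Ccr2 and Csf1r remained bright in the Ly6Clo array.

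RNA of other cell types was measured through 16 marker lists. Of 23 measured epithelial markers 21 passed the limit, and all 21 were at least 2-fold higher in the Ly6Clo array than in the splenic one. Only 10 of the 23 were at or above the median of the splenic array. Markers below it could enter only by being brighter in the Ly6Clo array, so the limit set their direction. The mean log2 level over the 23 was 9.18 in the Ly6Clo array, 5.89 in the colitis splenic array and 5.04 in the steady state splenic array. It was 9.71 to 11.12 in the other 5 colonic arrays, so the Ly6Clo array had the lowest epithelial level of the colonic arrays. Of the 13 stromal markers 8 passed, and Dcn (10.27 against 5.26) and Dpt (8.00 against 4.39) were higher in the Ly6Clo array. Of the 9 plasma cell markers 7 passed and 3 were higher, Jchain, Igha and Derl3, with Jchain at 10.71 against 7.03. The mean level of pancreatic acinar markers was 5.15 in the Ly6Clo array and 5.19 in the colitis splenic array, below the array medians. Of 13 T cell markers only Il7r passed, at 10.01 against 6.08, and of 13 NK and innate lymphoid markers only Klrd1 (10.70 against 6.39) and Nkg7 (5.92 against 6.07). Of 14 mast cell and basophil markers only Kit and Hdc passed. The part of these cells in the differences below was not tested.

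**Figure D2:**
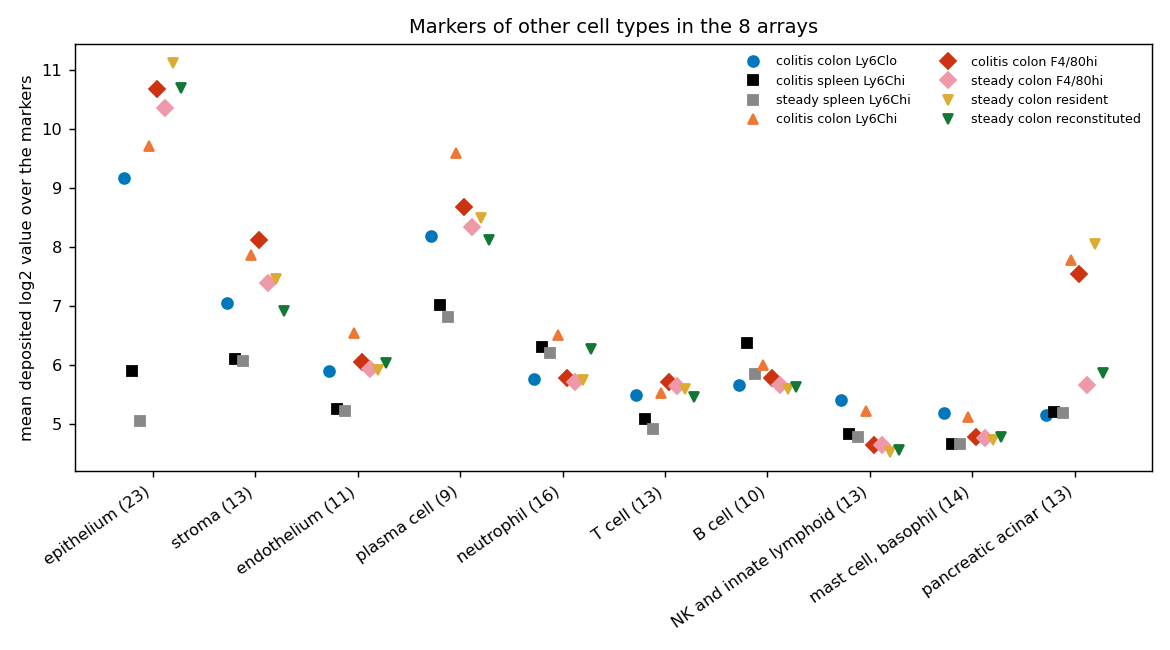
Mean deposited log2 value over the measured markers of 10 cell types (number in brackets) in each of the 8 arrays (symbols, 1 per array). The epithelial mean is 9.18 in the colitis colonic Ly6Clo array, below the other 5 colonic arrays and above both splenic arrays.

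Genes of conventional dendritic cells were brighter in the colonic Ly6Clo cells than in splenic monocytes. Of 37 listed genes 34 were measured and 33 passed the limit, and 21 were at least 2-fold higher and 0 at least 2-fold lower, with a median difference of 1.74 beside -0.07 over all genes. In 26 of the 33 the Ly6Clo value was the highest of the 8 arrays, which held for 20.5% of all 10197 genes. In 13 it was at least 2-fold above every other array, which held for 2.38% of all genes. The median difference was 1.67 over the 26 genes for which both arrays were at or above their medians. The other passing genes lay below the splenic array median and entered through the Ly6Clo array, so the limit set their direction. The counts were not repeated without them. The epithelial marker mean was higher in the Ly6Clo array than in the splenic arrays too, and its part in this difference was not tested.

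Among genes of the XCR1-type and CD103-positive dendritic cells, Itgae, which encodes the integrin chain CD103, had log2 values of 9.47 in the Ly6Clo array, 4.74 and 4.85 in the colitis and steady state splenic arrays, 5.64 in the colonic Ly6Chi array, 4.70 in the colitis F4/80hi array and 4.66, 4.73 and 4.98 in the steady state F4/80hi, resident and reconstituted arrays. The Ly6Clo value was the only one above its array's median. Clec9a, a receptor for exposed actin on dead cells that aids cross-presentation, was 9.65 in the Ly6Clo array, 5.75 and 5.98 in the splenic arrays, 6.81 in the colonic Ly6Chi array, 7.04 in the colitis F4/80hi array and 5.81 to 5.85 in the steady state colonic arrays. Xcr1, the receptor for the chemokine XCL1, was 8.19 against 5.50, with 6.74 in the colonic Ly6Chi array. Their transcription factors stood nearer together. Batf3 differed by 0.45, Irf8 by 0.51 and Id2 by 0.44, each under 2-fold.

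Zbtb46, the transcription factor of the conventional dendritic cell lineage, had a log2 value of 6.86 in the Ly6Clo array and 4.38 to 4.67 in the other 7 arrays. It was therefore above the array median in the Ly6Clo array alone, although its level there was modest. Flt3, the cytokine receptor that dendritic cells need, was 11.16 in the Ly6Clo array, 8.80 and 8.85 in the colitis and steady state splenic arrays, 9.03 in the colonic Ly6Chi array and 4.87 to 5.32 in the 4 CX3CR1hi arrays. The Ly6Clo cells thus stood above both splenic arrays, and the CX3CR1hi cells below all of these. Kit, the stem cell factor receptor, was 10.37 against 5.02, with 6.52 to 7.61 in the other 5 colonic arrays.

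Among genes known from CD11b-type dendritic cells, the lectins were higher and others lay within 2-fold. Mgl2 and Clec10a, galactose-binding lectins, were 10.53 against 5.83 and 10.80 against 8.53. Mgl2 was about as bright in the CX3CR1hi arrays (10.28 to 10.64), while Clec10a was 8.04 to 9.01 in the other 7 arrays. Cd209a, a DC-SIGN-type lectin, was 12.38 against 10.64, and 11.69 in the colonic Ly6Chi array. Irf4, a transcription factor of this subset, was 9.46 against 8.55, and Sirpa, its signal regulatory surface protein, 11.60 against 11.92, both under 2-fold. Itgax, which encodes CD11c, was 11.90 against 8.72, and 11.46 to 11.69 in the CX3CR1hi arrays, so it did not set the Ly6Clo cells apart from colonic macrophages.

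Plasmacytoid dendritic cell markers gave a mixed result. Of 10 measured markers 7 passed, 3 were at least 2-fold higher (Klra17, Ccr9 and Spib) and 1 lower (Ly6d). Ccr9, a gut-homing chemokine receptor, was 7.55 against 4.82, and Spib, an Ets factor, 8.04 against 5.67. Irf7 and Bst2, of the interferon response, differed by -0.90 and -0.26, both under 2-fold.

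Genes of mature, migrating dendritic cells were mostly higher. Of 38 listed genes 36 were measured and 35 passed, 28 were at least 2-fold higher and 1 lower, and the median difference was 2.31. It was 1.37 over the 21 genes for which both arrays were at or above their medians. The Ly6Clo value was the highest of the 8 arrays in 29 of the 35 and at least 2-fold above every other array in 18. These held for 20.5% and 2.38% of all genes, and 13.2% of all genes were at least 2-fold higher than in the splenic array. List genes below the splenic array median could enter only by being brighter in the Ly6Clo array, so the limit set their direction. The counts were not repeated for the 21 genes.

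Ccr7, the receptor that carries dendritic cells to lymph nodes, had log2 values of 11.66 in the Ly6Clo array, 6.69 in the colitis splenic array, 6.25 in the steady state splenic array, 9.21 in the colonic Ly6Chi array, 6.36 in the colitis F4/80hi array and 6.33, 6.33 and 6.52 in the steady state F4/80hi, resident and reconstituted arrays. The colonic Ly6Chi array held the next highest value, and the other 6 lay close together. Fscn1, the actin-bundling protein fascin of dendritic cell protrusions, was 11.29 against 5.25, and 7.22 in the colonic Ly6Chi array. Ccl22 and Ccl17, the ligands of CCR4 on T cells, were 10.69 against 4.60 and 10.88 against 5.03. In the colonic Ly6Chi array they were 5.68 and 6.69, so the values of the Ly6Chi array were lower than those of the Ly6Clo array by 5.01 and 4.19 log2 units.

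Costimulatory and checkpoint molecules differed by less. Cd86 was 11.47 against 9.16, Cd80 11.25 against 9.30 and Icosl 10.92 against 8.79, and Cd40 differed by 0.99, just under 2-fold. The ligands of PD-1 were also higher, Cd274 at 11.42 against 8.40 and Pdcd1lg2 at 8.87 against 5.55. Cd86, Cd80 and Cd274 were nearly as bright in the colonic Ly6Chi array, at 11.20, 11.20 and 10.96. Il12b, the p40 subunit of IL-12 and IL-23, was 8.28 in the Ly6Clo array and 5.20 in the splenic, and no higher than 6.15 elsewhere. Aldh1a2, which makes retinoic acid in gut dendritic cells, was 6.70 against 4.37, with 4.30 to 4.59 in the other 7 arrays. Traf1 and Relb, of the NF-kB pathway, were 10.61 against 7.09 and 9.19 against 7.48. The list's lower gene was Il15, a cytokine that sustains lymphocytes, at 7.75 against 9.41.

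**Figure D3:**
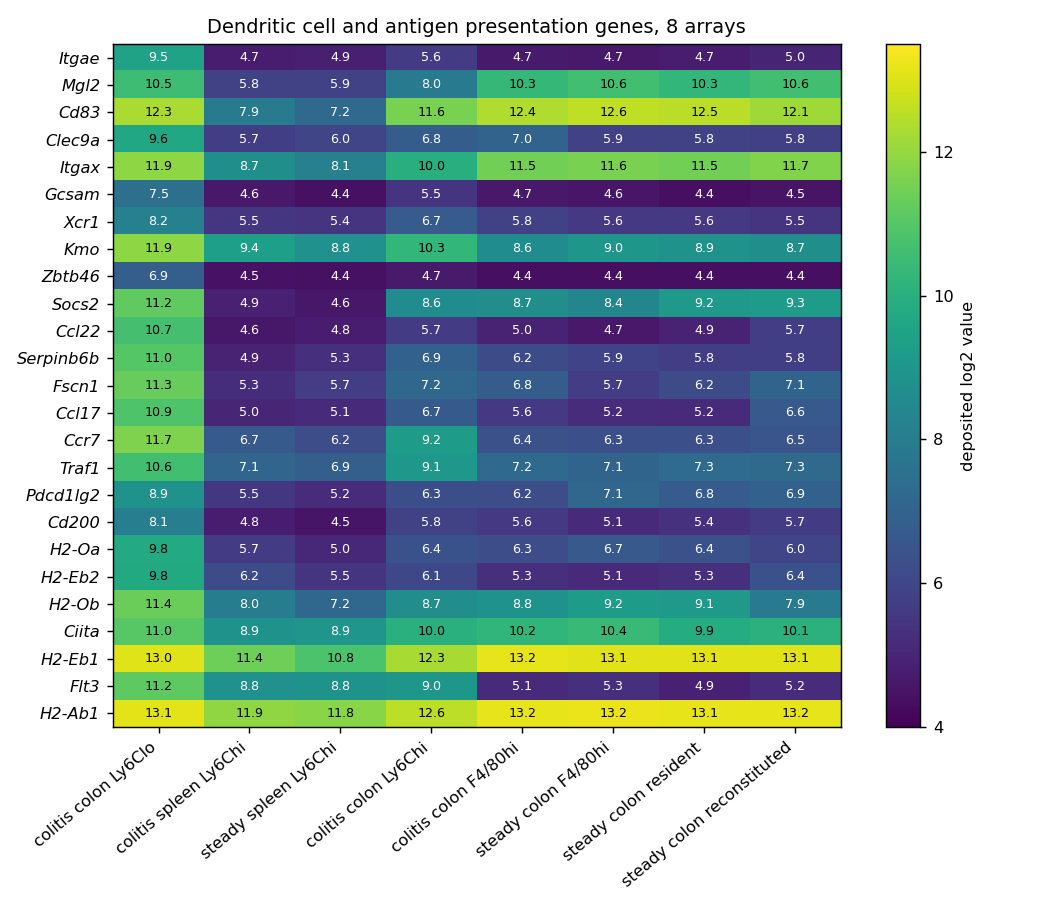
Deposited log2 values of dendritic cell and MHC class II genes (rows) in the 8 arrays (columns), coloured by value with the value printed in each cell. The rows are the genes with the largest absolute difference in each of 3 lists, plus Flt3, Zbtb46 and H2-Ab1. Ccr7, at 11.66, and Itgae, at 9.47, are highest in the Ly6Clo column.

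MHC class II genes were higher to a lesser degree. All 16 measured genes of the 18 listed passed, 7 were at least 2-fold higher and 0 lower, and the median difference was 0.75. The class II chains were bright in both cell types. H2-Ab1 was 13.10 against 11.91, H2-Aa 13.30 against 12.44 and their invariant chain Cd74 12.92 against 12.28, and all 3 were slightly brighter still in the CX3CR1hi F4/80hi array, at 13.16, 13.42 and 13.12. The larger differences were in H2-Oa and H2-Ob, the chains of H2-O, which restrains peptide loading, and in H2-Eb2. H2-Oa was 9.79 in the Ly6Clo array, 5.66 and 5.04 in the colitis and steady state splenic arrays and 5.99 to 6.66 in the other 5 colonic arrays. Ciita, the class II master regulator, was 11.04 against 8.86. Ctss, the protease that trims the invariant chain, was 11.37 against 12.21, under 2-fold lower.

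Promoter sequences are shown for the MHC class II and cell cycle lists. RefSeq promoters (GRCm38.p6) were available for 15614 of the 19938 genes, and the 250 bases before the first listed start were searched on both strands for 11 short motifs in 9 gene lists. The motifs and promoters shown were picked after their shares were seen, and the shares are a description with no test. The letters CCAAT, core of the Y box of class II promoters, were present in 8 of 12 MHC class II promoters (66.7%) and in 35.5% of all 15614. The 8 genes were not all higher, with differences of -0.18 for Rfxank and 0.30 for Lgmn. The promoters of H2-Oa (chr17:34092129-34092378, plus strand) and H2-Eb2 (chr17:34325425-34325674, plus strand) are printed because these genes had the largest differences among the 8, and capitals mark CCAAT on either strand.

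H2-Oa: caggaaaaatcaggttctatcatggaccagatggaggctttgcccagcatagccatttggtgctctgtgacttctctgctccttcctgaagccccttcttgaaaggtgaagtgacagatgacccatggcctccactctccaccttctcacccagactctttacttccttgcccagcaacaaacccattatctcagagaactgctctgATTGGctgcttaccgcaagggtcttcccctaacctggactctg

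H2-Eb2: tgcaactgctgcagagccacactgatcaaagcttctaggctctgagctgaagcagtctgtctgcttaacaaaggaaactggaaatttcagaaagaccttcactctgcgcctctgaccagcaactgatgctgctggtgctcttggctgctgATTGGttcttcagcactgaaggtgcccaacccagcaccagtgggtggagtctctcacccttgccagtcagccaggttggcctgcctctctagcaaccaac

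Each of these promoters holds 1 match, written as ATTGG on the printed strand.

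Cell cycle genes were higher in the colonic Ly6Clo cells across the cycle. Of 51 genes of DNA replication and S phase 49 were measured and 45 passed, 32 were at least 2-fold higher and 1 lower, and the median difference was 1.46. Of 75 genes of G2 and mitosis 73 were measured and 70 passed, 63 were at least 2-fold higher and 0 lower, and the median was 2.13. The Ly6Clo value was the highest of the 8 arrays in 40 of the 45 and in 67 of the 70. The background shares were 13.2% for a 2-fold higher value and 20.5% for the highest value. Both arrays were at or above their medians for 32 of the 45 and 39 of the 70, with median differences of 1.17 and 2.15. The rest lay below the splenic array median and entered through the Ly6Clo array, so the limit set their direction. The counts were not repeated without them.

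In S phase the helicase subunits Mcm2 to Mcm7 were all higher, from 1.59 for Mcm4 to 2.97 for Mcm6. Mcm6 was 9.38 in the Ly6Clo array, 6.42 and 6.63 in the colitis and steady state splenic arrays, 6.71 in the colonic Ly6Chi array, 7.61 in the colitis F4/80hi array and 7.61, 8.12 and 8.14 in the steady state F4/80hi, resident and reconstituted arrays. The colonic Ly6Chi array lay near the splenic arrays, and the 4 CX3CR1hi arrays lay between. Rrm2, which makes deoxynucleotides, was 8.49 against 5.78, and Pole, a replicative polymerase, 7.90 against 5.05. Pcna, the polymerase clamp, was bright in both, at 11.54 and 11.37. The 1 gene that was at least 2-fold lower was E2f2, at 7.08 against 8.87.

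In mitosis the largest difference was that of Bub1, a spindle checkpoint kinase, at 9.58 in the Ly6Clo array, 5.80 and 6.07 in the splenic arrays, 6.50 in the colonic Ly6Chi array and 7.08 to 7.98 in the 4 CX3CR1hi arrays. No other array came within 1 log2 unit of the Ly6Clo value. Mki67, the proliferation antigen, was 10.85 against 8.03, with 9.38 in the colonic Ly6Chi array and 9.49 to 9.96 in the CX3CR1hi arrays. Top2a, which untangles DNA, was 10.42 against 6.66, but the differences of its 2 probe sets were 0.56 and 3.77. The mitotic kinase Cdk1 and its cyclin Ccnb2 were 9.09 against 6.38 and 10.91 against 8.05. Racgap1 (-0.42), Pttg1 (-0.73) and Cks2 (-0.18) were the only passing mitosis genes below 0.

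The mean level of the measured mitosis genes was 8.09 in the Ly6Clo array, 6.42 to 7.10 in the other 5 colonic arrays and 6.16 and 6.22 in the splenic arrays. The epithelial marker mean, 9.18 in the Ly6Clo array, was also above both splenic arrays and was the lowest of the 6 colonic arrays. The part of epithelial cells in the cell cycle differences was not tested.

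**Figure D4:**
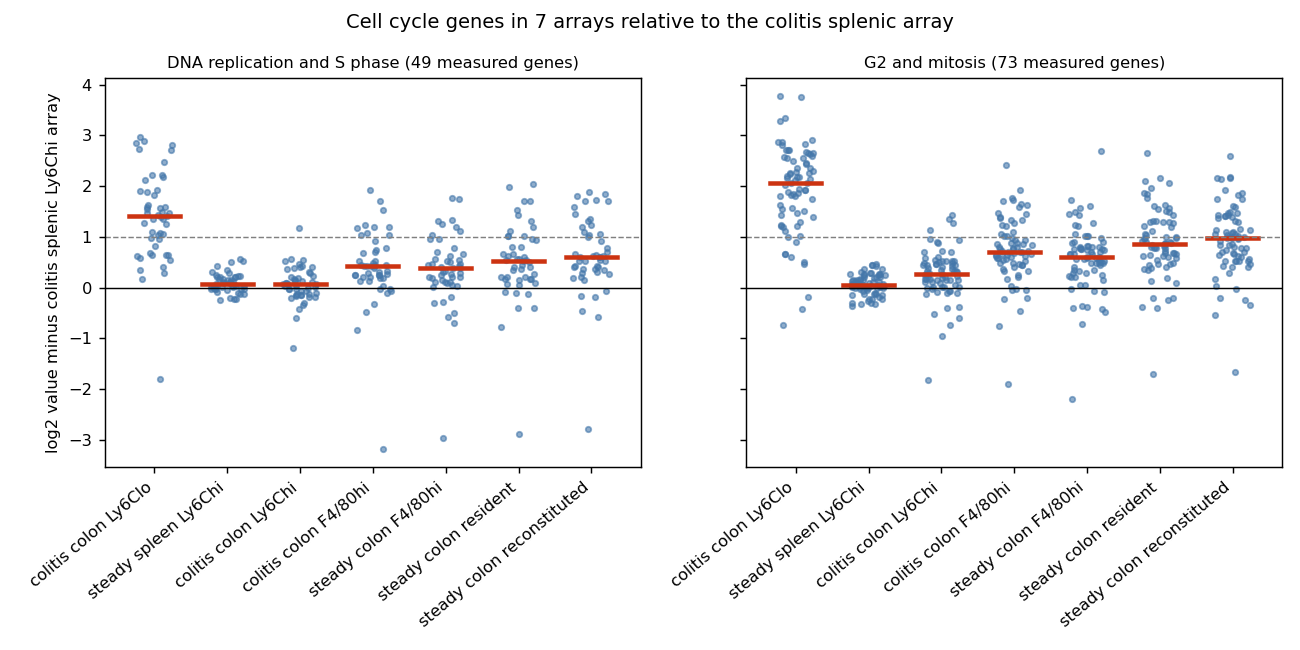
Log2 value of each measured cell cycle gene (points) in 7 arrays minus its value in the colitis splenic array, for S phase genes (left, 49) and mitosis genes (right, 73); red bars are medians over all measured genes and the dashed line marks 2-fold. The medians are 1.41 and 2.07 in the Ly6Clo array, the highest of the 7 in each panel.

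The promoters of these genes hold letters of known cell cycle elements. TTTGAA, a form of the cell cycle homology region, occurred in 22 of 60 mitosis promoters (36.7%) and in 13.7% of all promoters, and TTTGAA together with CCAAT in 18 of 60 (30.0%) and 5.02%. TTTNNCGC, an E2F-type motif, occurred in 11 of 42 S phase promoters (26.2%) and in 5.58% of all. The promoters below had the largest differences among genes of each list that hold the motif, and capitals mark TTTGAA and CCAAT in the mitosis genes and TTTNNCGC in the S phase genes, on either strand. Top2a lies at chr11:99024190-99024439 (minus strand), Ncapg, a condensin subunit, at chr5:45669675-45669924 (plus strand), and Kif11, a spindle motor kinesin, at chr19:37376132-37376381 (plus strand).

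Top2a: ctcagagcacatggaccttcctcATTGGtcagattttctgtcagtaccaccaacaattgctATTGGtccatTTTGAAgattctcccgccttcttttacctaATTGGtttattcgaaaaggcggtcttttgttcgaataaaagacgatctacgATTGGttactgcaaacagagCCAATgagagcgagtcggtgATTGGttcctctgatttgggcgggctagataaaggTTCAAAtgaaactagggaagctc

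Ncapg: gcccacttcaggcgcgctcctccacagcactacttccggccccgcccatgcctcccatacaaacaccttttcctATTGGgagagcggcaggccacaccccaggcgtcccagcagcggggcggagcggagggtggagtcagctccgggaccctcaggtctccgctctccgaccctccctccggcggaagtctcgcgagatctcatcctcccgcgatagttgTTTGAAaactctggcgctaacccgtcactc

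Kif11: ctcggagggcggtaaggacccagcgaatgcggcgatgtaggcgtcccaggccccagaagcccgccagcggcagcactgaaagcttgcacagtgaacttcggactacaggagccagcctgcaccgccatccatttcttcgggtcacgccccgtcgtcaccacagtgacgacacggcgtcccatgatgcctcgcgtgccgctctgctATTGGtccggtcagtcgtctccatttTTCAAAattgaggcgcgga

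Mcm6 lies at chr1:128359706-128359955 (minus strand), and Uhrf1, which maintains DNA methylation at replication, at chr17:56303087-56303336 (plus strand).

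Mcm6: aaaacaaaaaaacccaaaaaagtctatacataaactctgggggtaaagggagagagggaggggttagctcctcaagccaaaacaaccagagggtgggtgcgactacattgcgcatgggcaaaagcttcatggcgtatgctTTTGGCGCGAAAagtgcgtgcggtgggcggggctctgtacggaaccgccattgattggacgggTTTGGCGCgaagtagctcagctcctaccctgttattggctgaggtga

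Uhrf1: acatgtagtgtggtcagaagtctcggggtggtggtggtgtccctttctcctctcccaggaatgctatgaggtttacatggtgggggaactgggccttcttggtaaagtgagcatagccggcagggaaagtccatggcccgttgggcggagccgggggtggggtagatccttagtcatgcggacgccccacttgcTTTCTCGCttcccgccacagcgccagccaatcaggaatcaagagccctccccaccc

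Capitals form 8 runs in Top2a, 2 runs in Ncapg, Kif11 and Mcm6 and 1 in Uhrf1. Overlapping matches on the 2 strands are joined in 1 run of Mcm6.

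Inflammatory genes were split. Of 49 listed cytokines and mediators 47 were measured and 36 passed, 17 were at least 2-fold higher and 7 lower, and the median difference was 0.86. Over all 47 measured genes the median was 0.33, and it was 0.22 over the 24 genes for which both arrays were at or above their medians. The other passing genes entered through 1 array only, so the limit set their direction. The counts were not repeated for the 24 genes. The Ly6Clo value was the highest of the 8 arrays in 3 of the 36.

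Ptgs2, the inducible cyclooxygenase, was 12.50 in the Ly6Clo array and 8.78 in the colitis splenic array, but 5.03 in the steady state splenic array and 11.48 to 12.69 in the other colonic arrays. All colonic arrays were thus high, and the splenic arrays differed from each other as well. Il1b was 12.96 against 10.46, and 12.62 to 12.95 in the other colonic arrays. Il6 was 7.80 against 4.80, with 8.78 in the colonic Ly6Chi array and 4.92 to 5.57 in the CX3CR1hi arrays, so it was raised in both CX3CR1int populations. Il1a was 8.24 against 4.93 and lower than in the other 5 colonic arrays, where it was 10.21 to 11.64. Vegfa, Osm and Acod1, the itaconate enzyme, were higher than in the spleen by 4.08, 2.43 and 3.23, and each was higher still in the colonic Ly6Chi array.

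Tnfsf9, a costimulatory ligand of the TNF family, was 10.36 against 6.29, near 10.24 in the colonic Ly6Chi array. Il22ra2, the secreted IL-22 antagonist, was 8.34 against 4.56, with 4.83 in the colonic Ly6Chi array and 9.16 in the reconstituted array. Il10 and Tnf were modest in the Ly6Clo cells, 6.46 and 8.86, beside 10.63 and 10.14 in the F4/80hi array. The 7 lower genes were Clec4d, Clec4e, Il15, Tnfsf14, Il27, Saa3 and Tgfb1, with differences of -1.74 to -1.27. Nos2, Csf2 and Csf3 did not pass the limit.

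Set against the colonic Ly6Chi array of the same colitis, the Ly6Clo cells were at least 2-fold lower in 18 and higher in 3 of 39 passing inflammatory genes, where 5.51% and 6.46% of 10132 genes were. Trem1, which amplifies inflammatory signals, was 7.60 in the Ly6Clo array and 10.92 in the Ly6Chi array, and Clec4e, the glycolipid receptor Mincle, 9.02 and 12.10.

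Of 33 chemokine ligands, all measured, 22 passed, 16 were at least 2-fold higher and 3 lower than in the splenic array, and the median difference was 1.40. The median was 0.91 over all 33 ligands with no brightness limit, 2.16 with the brighter array at or above its 75th percentile and 2.55 against the steady state splenic array, so its size depended on these choices. The median was 1.13 over the 15 ligands for which both arrays were at or above their medians. The other passing ligands entered through 1 array only, so the limit set their direction. The counts were not repeated for the 15 ligands. Ccl22 and Ccl17, both below the splenic array median in the spleen, led the list. Cxcl16 was 11.85 against 8.50, and Ccl5 11.52 against 8.57. The interferon-induced ligands of CXCR3 were higher too, Cxcl9 at 11.90 against 9.74, Cxcl10 at 11.86 against 10.28 and Cxcl11 at 8.66 against 5.48. Ccl28, an epithelial chemokine, was 8.46 against 5.71 and 8.76 to 11.11 in the other colonic arrays, and it moved with the epithelial markers above; their part was not tested.

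Ligands that attract monocytes and neutrophils did not share a direction. Ccl7 and Ccl8, which draw monocytes, were higher by 2.43 and 1.13. Ccl2, of the same kind, was 8.82 in the Ly6Clo array, 9.17 in the colitis splenic array and 6.43 in the steady state splenic array. Cxcl2, a neutrophil attractant, was 9.53, 8.46 and 5.50 in the same order, and 11.32 to 12.47 in the other colonic arrays. The 2 splenic arrays lay further apart for Cxcl2 than the Ly6Clo and colitis splenic arrays did. The 3 lower ligands were Ccl6, Ccl9 and Ccl25, with Ccl6 at 10.32 against 12.35. Ccl25 has 2 probe sets, whose differences were -1.57 and -0.50, the second under 2-fold.

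Genes of Ly6Chi monocytes were lower in the colonic Ly6Clo cells. Of 65 listed genes 61 were measured and 51 passed, 37 were at least 2-fold lower and 3 higher, and the median difference was -1.57. It was -1.44 over the 41 genes for which both arrays were at or above their medians. List genes below the Ly6Clo array median could enter only by being brighter in the splenic array, so the limit set their direction. The counts were not repeated for the 41 genes. In 17 of the 51 the Ly6Clo value was the lowest of the 8 arrays, which held for 17.8% of all genes. The genes with the largest differences lay below the array median in the Ly6Clo array. Chil3, a chitinase-like protein of monocytes, was 4.60 in the Ly6Clo array, 11.36 and 11.61 in the colitis and steady state splenic arrays, 9.28 in the colonic Ly6Chi array, 4.29 in the colitis F4/80hi array and 4.19, 4.22 and 4.43 in the steady state F4/80hi, resident and reconstituted arrays. The splenic and Ly6Chi arrays were bright, and the Ly6Clo array lay with the CX3CR1hi arrays. Hp, haptoglobin, was 4.78 against 11.18, and 10.62 in the colonic Ly6Chi array. Mmp8, a collagenase, was 4.35 against 10.74, and Vcan, a matrix proteoglycan, 5.64 against 10.76, with 11.28 in the colonic Ly6Chi array.

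Other monocyte genes were lower and yet above the array median. Serpinb10 was 7.97 in the Ly6Clo array, 12.73 in the splenic and 10.65 in the colonic Ly6Chi array, and 4.38 to 4.75 in the 4 CX3CR1hi arrays. Ifitm6 was 11.50 against 12.81, and 5.50 to 6.23 in the CX3CR1hi arrays, and S100a4 was 10.37 against 10.75, and 4.77 to 6.36 there. These genes, with Plac8 (11.60 against 12.78), thus stood higher in the Ly6Clo array than in the CX3CR1hi arrays. The monocyte list as a whole did not. Set against the colitis CX3CR1hi array, the differences of the 43 passing list genes ran from -3.12 to 5.27. Their median was 0.05, beside -0.01 over all 10396 genes passing in that comparison. The lysozyme gene Lyz2 was 11.82 against 13.26, and its values in the other 7 arrays were 13.06 to 13.30. The myeloid transcription factors Cebpa, Cebpb and Cebpd were lower by log2 differences of -1.56, -1.52 and -1.91. The 3 higher genes were Myb, Thbs1 and Irf2bp2.

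Some genes of this list are also neutrophil genes, and 8 of 16 measured neutrophil markers passed. Of these 5 were at least 2-fold lower in the Ly6Clo array, namely Mmp8, Lcn2, Csf3r, S100a8 and Ngp, and Il1r2 and Ly6g were higher. The mean neutrophil marker level was 5.76 in the Ly6Clo array and 6.30 in the colitis splenic array, and S100a9 did not pass, at 4.76 and 5.48. The part of neutrophils was not tested.

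Of 23 genes of patrolling Ly6Clo monocytes 21 were measured and all passed, 10 were at least 2-fold lower and 2 higher, and the median difference was -0.69. With the brighter array at or above its 75th percentile the median was -1.52. All 21 values lay at or above the median of 5.84 in the Ly6Clo array, some only just, the lowest at 5.92. Ace, Adgre4, Treml4 and Spn, given next, lay below that array's 75th percentile of 8.18. Ace, angiotensin-converting enzyme, was 6.20 against 11.58, Adgre4 7.68 against 11.92 and Treml4 7.20 against 11.31. Spn, which encodes CD43, was 6.27 against 8.65, and Itgal, the LFA-1 chain, 8.46 against 11.44. Nr4a1, the nuclear receptor on which patrolling monocytes depend, was 12.34 against 11.69, and Cd9, a tetraspanin, was higher, at 9.04 against 5.85. Treml4 is also a red pulp macrophage marker, and of 6 such markers 5 passed and 3 were lower, including Spic at 6.42 against 9.06. Of 10 B cell markers 5 passed and 2 were lower, with Cd79b at 7.65 against 9.61.

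**Figure D5:**
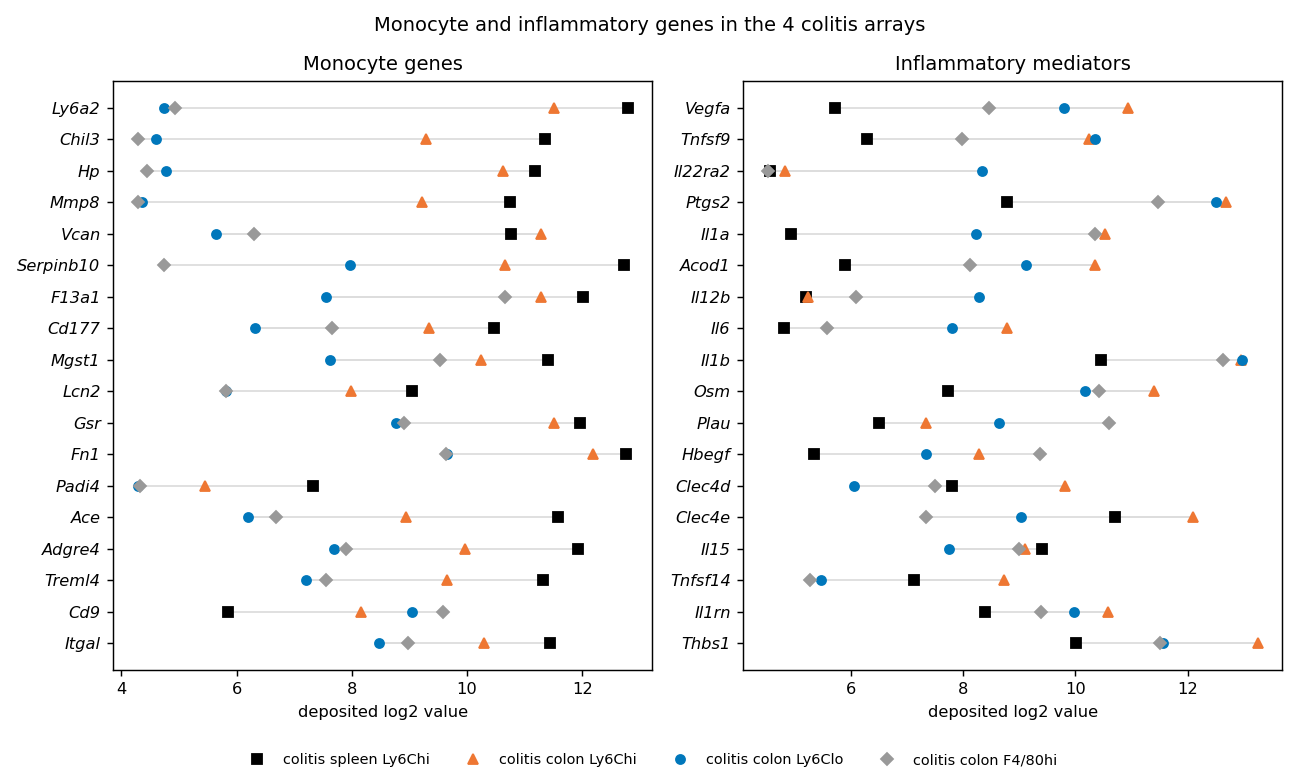
Deposited log2 values of monocyte genes (left) and inflammatory mediators (right) in the 4 colitis arrays (symbols); genes are those with the largest absolute difference in their lists, and grey lines join the arrays of a gene. Chil3 stands at 4.60 in the Ly6Clo array and 11.36 in the splenic array, and Il1b at 12.96 and 10.46.

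Receptors of microbial patterns were mostly lower or within 2-fold. Of 36 passing genes 15 were at least 2-fold lower and 3 higher, and the median difference was -0.78. Tlr7, an endosomal sensor of single-stranded RNA, was 7.19 in the Ly6Clo array, 12.29 and 12.37 in the colitis and steady state splenic arrays, 10.43 in the colonic Ly6Chi array and 10.91 to 11.31 in the CX3CR1hi arrays. It was lowest in the Ly6Clo array. Tlr8 was 8.14 against 11.61, and Ly96, the partner of TLR4, 8.69 against 11.77. Tlr3, a sensor of double-stranded RNA found in cross-presenting dendritic cells, was 8.40 against 6.29. Of 8 passing Fc receptor genes 3 were lower and 1 higher. The IgG receptors Fcgr1 and Fcgr3 differed by -1.38 and -2.26, and the higher gene, Pigr, carries IgA across epithelium and was 10.42 to 12.25 in the other colonic arrays.

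Macrophage genes went both ways, with 12 of 35 passing genes at least 2-fold higher, 14 lower and a median of -0.09, which was 0.08 over all 41 measured genes. In 17 of the 35 the Ly6Clo value was the lowest of the 8 arrays, which held for 17.8% of all genes. Trem2 was 5.96 against 8.57, and Gas6, a bridge to dying cells, 8.16 against 5.18 with 10.23 to 10.68 in the CX3CR1hi arrays. Dab2, an endocytic adaptor, was 11.68 against 7.12, but the differences of its 2 probe sets were -0.05 and 4.56.

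Genes that respond to stimulation were split by pathway. Among 33 passing immediate early genes, 16 stood at least 2-fold above the splenic array and 2 below it, with a median of 0.96. Against the steady state splenic array 22 of 33 were higher and the median was 1.77, and 11 of 31 passing genes were at least 2-fold higher in the colitis than in the steady state splenic array. Nr4a2 was 11.47 against 6.69, and 10.46 in the colonic Ly6Chi array, and Egr2 was 9.32 against 6.07. Of 22 NF-kB pathway genes 7 were higher and 0 lower, with a median of 0.68, among them the feedback inhibitors Tnfaip3 (11.30 against 9.44) and Nfkbie (11.18 against 9.49). Of 42 interferon-response genes 7 were higher (16.7%) and 5 lower (11.9%), near the 13.2% and 9.32% of all genes, and the median was -0.25. Gbp4 and Iigp1, GTPases induced by interferon gamma, were 11.01 against 7.12 and 8.89 against 5.48, while Cmpk2 and Oas3, antiviral genes, were 7.08 against 9.05 and 8.12 against 9.88.

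Cytokine receptors included some of the largest differences, with 7 of 30 passing genes higher and 7 lower (23.3% each). Over all genes 13.2% were higher and 9.32% lower. Il1r2, the decoy receptor of IL-1, was 12.08 against 6.04, and 9.25 to 11.52 in the other colonic arrays. Il2ra, the high-affinity chain of the IL-2 receptor, was 8.47 against 4.83, and no higher than 5.92 elsewhere. Csf3r, the receptor for granulocyte colony-stimulating factor, was 8.27 against 10.95. Of 27 passing lysosomal genes 1 was higher (Cd63) and 4 were lower (14.8%), not far from the 9.32% of all genes. In 18 of the 27 the Ly6Clo value was the lowest of the 8 arrays, which held for 17.8% of all genes. Glycolysis genes gave 6 higher (26.1%) and 1 lower (4.35%) of 23, with Slc2a1, a glucose transporter, at 11.06 against 9.29.

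With the steady state splenic array in place of the colitis one, 1407 of 10248 genes (13.7%) were at least 2-fold higher in the Ly6Clo array and 988 (9.64%) lower. The median differences were 1.73 for conventional dendritic cell genes, 2.18 for mature dendritic cell genes, 1.38 and 2.06 for S phase and mitosis genes and -1.57 for monocyte genes. The colonic Ly6Chi array, set against the same colitis splenic array, had 987 of 10083 genes (9.79%) at least 2-fold higher and 398 (3.95%) lower. Its medians were 0.25 for conventional dendritic cell genes, 0.95 for mature dendritic cell genes, 0.33 for mitosis genes, 2.11 for inflammatory genes and -0.45 for monocyte genes. They cover the genes that passed in the Ly6Chi comparison, which are not the same genes as in the Ly6Clo comparison. Over all measured list genes they were 0.25, 0.70, 0.28, 1.02 and -0.45 in the same order. The Ly6Clo and Ly6Chi comparisons share the splenic array, so their values stand side by side only.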

How the data were processed

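Affymetrix arrays of sorted mouse cells (8 arrays, 1 per group) were read from the deposited table of log2 values, 1 per probe set, made by the authors with RMA in Partek, per the submitters' processing notes; versions are not given in the sources used here, and neither is the number of mice. RMA sets all arrays to a shared distribution and compresses dim values. Of 35399 probe sets, 21789 name 1 gene, 1621 several and 11989 none; the brightest probe set stood for each of 19938 genes, checked against the RefSeq gene table (GRCm38.p6). Differences were taken between single arrays with Python 3 libraries (pandas 2.3.3, numpy 2.4.6) and counted at a log2 difference of 1. The counting was tested on simulated data. Arrays, not counts, carry the values, so the number of arrays limits the precision. The members and the 40 gene lists were chosen with earlier results of these data known. Named genes were the 15 largest differences in each direction, members of 9 core lists, up to 6 members of each other list, and 10 anchor genes; predicted genes, receptor segments, histone clusters and small RNAs were left out. Slc39a8 and Sst were named as the genes next to the brightness limit.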

Additional observations from a re-analysis of the deposited data

Results flagged for a closer look

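In 5 named genes the colonic Ly6Clo and the colonic Ly6Chi array lay at least 2-fold from the same colitis splenic array in opposite directions, each with 1 array, and the difference was not tested. Against the splenic array, Saa3, an acute-phase protein, differed by -1.47 in the Ly6Clo array and 2.32 in the Ly6Chi array. Clec4d and Clec4e, paired C-type lectin receptors, differed by -1.74 and -1.67 in the Ly6Clo array and by 2.01 and 1.40 in the Ly6Chi array. Tnfsf14, the ligand LIGHT, differed by -1.65 and 1.61, and Cebpb, a myeloid transcription factor, by -1.52 and 1.25. In each of the 5 the Ly6Clo array was the lower of the colonic pair.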

How the results depend on the processing

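No median of the 9 core lists changed sign under the alternatives run, but the balance of higher and lower genes did turn. With the brighter array required at or above its 75th percentile there were 712 higher and 632 lower genes, with both arrays required at or above their medians 724 higher and 771 lower, and at a log2 difference of 2 there were 555 higher and 202 lower. With both arrays at or above their medians, the median difference was 1.37 for mature dendritic cell genes, 1.17 for S phase, 0.22 for inflammatory and 1.13 for chemokine genes. At the 75th percentile it was 2.48 for mitosis, 1.26 for inflammatory, 2.16 for chemokine and -1.52 for patrolling monocyte genes. With no limit it was 0.33 for inflammatory, 0.91 for chemokine and -1.28 for monocyte genes. Chemokine genes had 2.55 against the steady state splenic array and 2.10 against the mean of both. These limits change which genes are counted; the cause of the chemokine shift was not tested. Neither centring nor a new quantile normalization moved a list median by more than the spread between the 2 splenic arrays (SD over genes 0.25). Leaving out genes on marker lists of other cells was an alternative chosen for the list medians after seeing the data. The mature dendritic cell, MHC class II, S phase, mitosis and inflammatory lists held 0 such genes, so their medians could not move. The conventional dendritic cell and patrolling monocyte lists held 1 each, the chemokine list 2 and the monocyte list 9. Their medians moved by less than this spread. This alternative cannot show the part of RNA of other cells in the differences. Of 336 named genes at 2-fold or more, 4 were under 2-fold after centring, 2 after quantile normalization, 11 against the steady state splenic array and 8 against the mean of both, and 0 changed sign. No paired analysis was possible because each group has 1 array. With 1 array a group there is no replicate error, and dim genes are compressed toward the background.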
